A study of Mus musculus with 6 samples.

Results

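In wild-type mouse embryonic stem cells, 446 merged binding regions carried a peak of Ring1B and a peak of RYBP and no peak of Suz12 or Cbx7. They were chosen by the listed peak positions of the 4 proteins, by pooling all peaks, merging peaks that shared at least 1 bp and keeping the regions with Ring1B and RYBP peaks alone, 446 of 13390 regions (3.33%). The cells were the E14Tg2A line of strain 129/Ola, kept without feeders on gelatin in serum and leukemia inhibitory factor, with no further treatment and no mutant group. One immunoprecipitation followed by sequencing (ChIP-seq) each was used for Ring1B, with an antibody made in the submitting laboratory, and for RYBP, Suz12 and Cbx7, with commercial antibodies. The series also holds 2 libraries made with rabbit IgG, which were not analysed here.

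Ring1B is the ubiquitin ligase of Polycomb repressive complex 1 (PRC1), which marks histone H2A. In canonical PRC1 the ligase is joined by a Cbx protein such as Cbx7, whose chromodomain binds the histone H3 mark written by PRC2, the complex that contains Suz12. In variant PRC1 the place of the Cbx protein is taken by RYBP or its relative YAF2, and these complexes can reach chromatin through DNA-binding partners without the PRC2 mark. Regions with Ring1B and RYBP but without Suz12 are therefore the places where a PRC1 ligase and its variant subunit were both listed with no listed PRC2. The study compared the RYBP and Cbx7 forms of PRC1.

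The Ring1B list held 6982 peaks, the RYBP list 6872, the Suz12 list 8054 and the Cbx7 list 2754. The lists give positions only, so peak height and sequencing depth are unknown. Each protein had 1 library, and no value has a replicate check. Intervals for shares are 95% Wilson intervals and those for medians are 95% order-statistic intervals. Both treat regions as independent, which neighbouring regions are not, and neither covers variation between libraries. A region counts as lacking Suz12 when no peak was listed there, which does not show that the protein was absent.

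The members took up 6.39% of the Ring1B peaks and 6.49% of the RYBP peaks. Of the 2284 regions that carried both proteins, 19.5% (95% interval 18.0 to 21.2%) were members. Seen from the other side, 1251 regions carried Ring1B without Suz12, and RYBP was present in 446 of them (35.7%, 33.0 to 38.3%) while Cbx7 was present in 10 (0.799%). Pooled over all Ring1B widths, regions with Ring1B and Suz12 carried RYBP at a similar rate, in 1838 of 5470 (33.6%, 32.4 to 34.9%). The rates were not alike among Ring1B peaks of like width in the narrower quintiles of width, given below. The exclusion of Cbx7 removed nothing, because leaving the Cbx7 list out of the merging gave the same 446 regions. These counts follow from the rule and were not tested.

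Every member consisted of exactly 1 Ring1B peak and 1 RYBP peak. Regions with Ring1B, RYBP and Suz12 but no Cbx7 held exactly 1 peak of each list in 986 of 1049 cases (94.0%). The members were compact, with a median width of 1306 bp (1272 to 1368 bp), quartiles of 1107 and 1633 bp and a range from 570 to 4021 bp. The regions with Suz12 had a median width of 2049 bp, but a further list can only widen a merged region, so single peaks are the fairer comparison.

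Ring1B peaks in the members were narrower than in the whole list, and RYBP peaks were close to theirs. The median Ring1B peak spanned 977 bp (934 to 1040 bp), compared with 1716 bp (1667 to 1775 bp) where Suz12 was also present and 670 bp (642 to 700 bp) in the 795 regions with Ring1B only. The whole Ring1B list had a median of 1639 bp. RYBP peaks of the members had a median of 1226 bp (1177 to 1275 bp), against 1322 bp (1289 to 1358 bp) with Suz12, 1177 bp (1164 to 1188 bp) in the 4250 regions with RYBP only and 1219 bp in the whole list. The class medians of Ring1B width thus spread from 670 to 1716 bp, and those of RYBP width from 1177 to 1322 bp. Peak width bears on the chance of an overlap and may also reflect signal strength, so these widths are tied to the rule and were not tested.

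**Figure D1:**
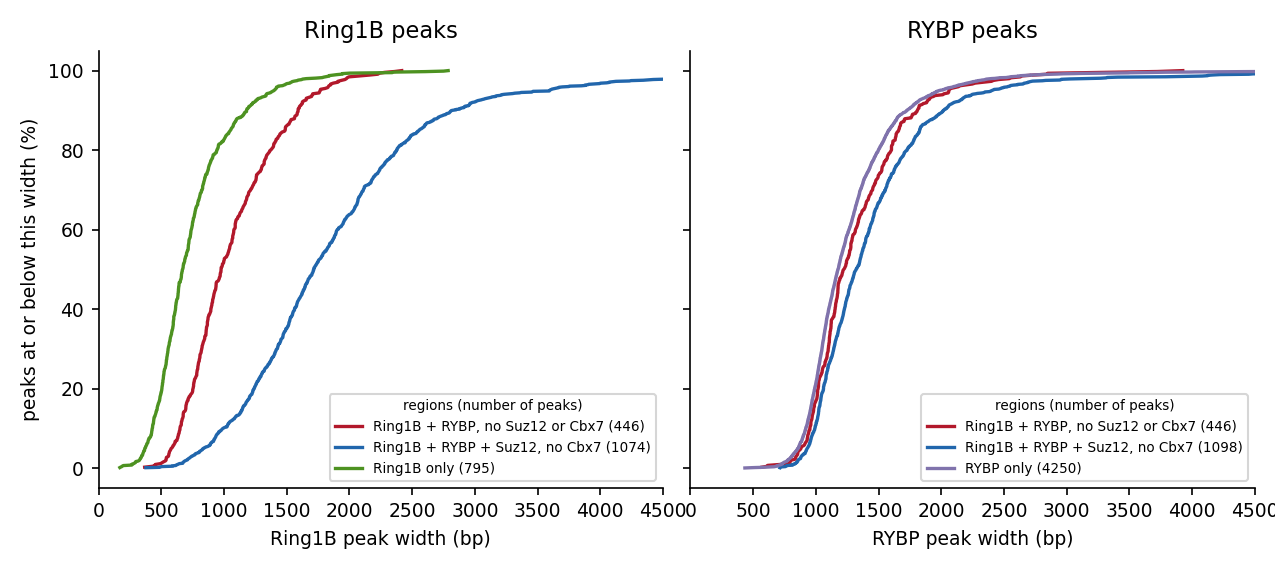
Cumulative share of peaks (y axis, percent) at or below each width (x axis, bp) for Ring1B peaks on the left and RYBP peaks on the right, one line per kind of region; the axis ends before the widest peaks. The Ring1B line of the 446 members lies between that of Ring1B alone (median 670 bp) and that with Suz12 (median 1716 bp), while the RYBP lines lie close together.

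Within the members the listed RYBP peak was usually the wider of the pair, in lists of 2 libraries whose depths and thresholds are unknown. Ring1B was narrower than RYBP in 363 of 446 regions (81.4%, 77.5 to 84.7%), and the median difference was 261 bp (226 to 286 bp). With Suz12 present, Ring1B was the narrower in 27.7% of regions (25.1 to 30.5%). Wide Ring1B peaks went with wide RYBP peaks across the members (Pearson r = 0.52, Spearman rho = 0.53, n = 446 regions of the same 2 libraries, given as a description).

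The Ring1B peak lay wholly inside the RYBP peak in 272 members (61.0%, 56.4 to 65.4%). In 147 members (33.0%) the peaks were staggered, each reaching past the other at one edge. The reverse nesting, RYBP inside Ring1B, was seen in 27 members (6.05%, 4.19 to 8.66%). Regions with Suz12 had 15.1% with Ring1B inside RYBP, 42.0% staggered and 42.9% with RYBP inside Ring1B. There a Suz12 peak can join a pair that does not touch, which the rule does not allow in members. The least stretch shared was 0 bp, and pairs without contact are counted as staggered. In 1038 of the 1049 regions at least 50% of the shorter peak was covered. The part of Ring1B width in that contrast was not tested. Among regions whose Ring1B peak fell between the members' quartiles of width, Ring1B lay inside RYBP in 143 of 222 members (64.4%, 57.9 to 70.4%) and in 75 of 203 regions with Suz12 (36.9%, 30.6 to 43.8%). Within this band the Ring1B medians still differed, at 977 and 1125 bp, and the RYBP medians were 1220 and 1162 bp.

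**Figure D2:**
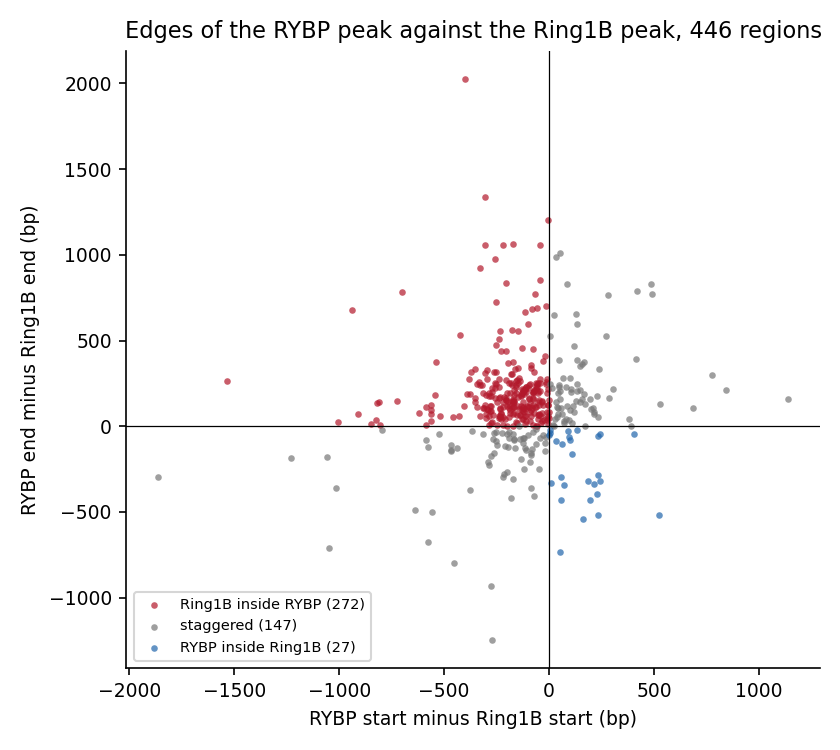
Each point is 1 of the 446 members; the x axis gives the RYBP start minus the Ring1B start and the y axis the RYBP end minus the Ring1B end, both in bp. The 272 regions with Ring1B inside RYBP fill the upper left quadrant near the origin, and the 27 with RYBP inside Ring1B the lower right.

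The peaks of a pair were closely centred. Their midpoints lay a median of 90 bp apart (79.5 to 101 bp), within 100 bp in 54.3% of members and within 500 bp in 94.4%. In regions with Suz12, where the pair need not touch, the median distance was 177 bp (162 to 189 bp). In the shared band of Ring1B width, where the Ring1B medians still differed, the distances were 80.3 bp (63.5 to 101 bp) in the members and 90.5 bp (71 to 114 bp) with Suz12, and these intervals overlap. The 2 edges behaved alike: RYBP reached past Ring1B at the lower coordinate in 76.7% of members and at the higher coordinate in 77.6%, with median distances of 165 bp between starts and 156 bp between ends.

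No member rested on a marginal contact. The shared stretch had a median of 912 bp (894 to 958 bp) and was never below 355 bp, although 1 bp was enough for the rule. At least 50.3% of the shorter peak was covered in every member, and at least 90 percent of it in 390 members (87.4%). The median member had its Ring1B peak covered to 100% and its RYBP peak to 76.2%. The smallest contact, on chromosome 15 from 97423837 to 97424990 (all positions are mm9, as listed), joined a Ring1B peak of 625 bp and a RYBP peak of 883 bp over 355 bp. The next smallest, on chromosome 13 from 75840152 to 75840942, was the narrowest Ring1B peak of the members, 367 bp, lying wholly inside a RYBP peak of 790 bp. Further small contacts of 430, 449 and 451 bp, on chromosome 1 from 193489832, chromosome 2 from 126701515 and chromosome 5 from 42235394, were also Ring1B peaks wholly inside RYBP. Just outside the rule, 2 of the 795 Ring1B-only regions had a RYBP peak within 100 bp and 18 had one within 1000 bp.

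The widest member lay on chromosome 5 from 26394670 to 26398691. There a RYBP peak of 3725 bp and a Ring1B peak of 2158 bp were staggered and shared 1862 bp, and the midpoint distance of 1080 bp was the longest of the 446. On chromosome 4 from 147111799 to 147115725, the widest RYBP peak of the members, 3926 bp, enclosed a Ring1B peak of 1498 bp. The region on chromosome 8 from 57975618 to 57978895 had the same nesting, with RYBP on 3277 bp and Ring1B on 1656 bp. A pair of these wide members lay on chromosome 6. The first, from 30123823 to 30126916, was staggered, and the second, from 30408970 to 30411819, held the widest Ring1B peak of the members (2417 bp), all of it within RYBP. That full overlap of 2417 bp was also the longest shared stretch, followed by 2162 bp on chromosome 8 from 87245226 to 87247975, 1862 bp in the widest member, 1851 bp on chromosome 1 from 136140425 to 136142630 and 1808 bp on chromosome 1 from 188790249 to 188792623. These last 3 regions and the chromosome 8 region of 2162 bp were staggered.

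Regions with a single Ring1B peak were divided by quintiles of width of the whole Ring1B list. The shares that follow are counts of the overlaps the rule used, in quintiles chosen after the values were seen, and are a description. Of those that carried RYBP, members made up 199 of 268 (74.3%, 68.7 to 79.1%) in the narrowest quintile, which ended at 926 bp, and 167 of 402 (41.5%, 36.8 to 46.4%) in the next. The share was 14.5% in the middle quintile, 2.29% in the fourth and 0 of 542 in the widest, where Wilson's upper bound was 0.704%. The same peaks were then taken among Ring1B regions without Suz12. There RYBP was present in 199 of 834 (23.9%, 21.1 to 26.9%) in the narrowest quintile, in 56.0% (50.4 to 61.6%) of 298 in the next and in 69.4% (59.7 to 77.6%) of 98 in the middle one. The 2 widest quintiles held 19 and 2 such regions. A wider peak has more room to meet a RYBP or a Suz12 peak, so nothing about the proteins is read from these shares.

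**Figure D3:**
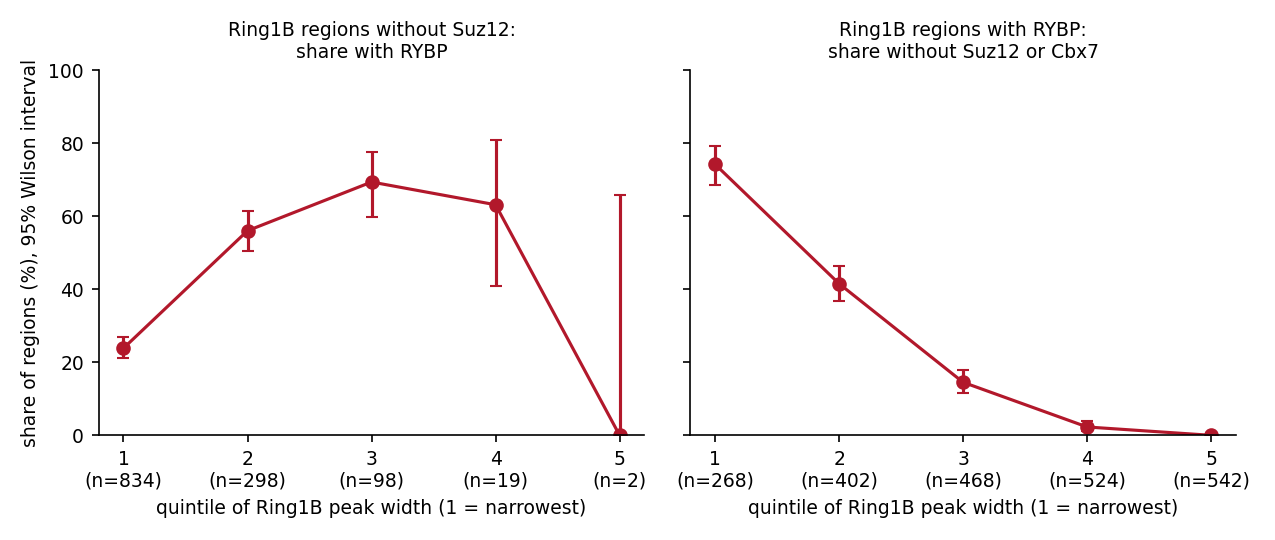
Shares in percent (y axis, points with 95% Wilson intervals) by quintile of Ring1B peak width (x axis, 1 is narrowest, number of regions below). Left, RYBP among Ring1B regions without Suz12 stands at 23.9% in the narrowest and 69.4% in the middle quintile; right, members among Ring1B regions with RYBP stand at 74.3% in the narrowest and 0 in the widest. Both shares count overlaps that the rule used.

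Most members lay more than 10 kb from any Suz12 peak, and the gaps were not set against those of random positions. The gap to the nearest one had a median of 73.0 kb (62.6 to 80.3 kb), with quartiles of 26.0 and 157 kb and a range from 0.073 to 1388 kb. A Suz12 peak lay within 1 kb of 3 members (0.673%), within 5 kb of 21 (4.71%, 3.10 to 7.09%), within 10 kb of 48 (10.8%, 8.21 to 14.0%) and within 100 kb of 275 (61.7%). Cbx7 was farther away, at a median of 253 kb (222 to 304 kb). A Cbx7 peak lay within 1 kb of 0 of 446 members (upper Wilson bound 0.854%), 3 members had one within 5 kb (0.673%, 0.229 to 1.96%) and 13 within 10 kb (2.91%). RYBP-only regions had a median Cbx7 gap of 259.9 kb (246 to 273 kb) and 0.682% within 5 kb, and Ring1B-only regions 291 kb (265 to 338 kb) and 8.30% (6.58 to 10.4%). Suz12 was the closer of the 2 proteins for 418 members (93.7%), and the Suz12 list is also the longer.

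The spacing from Suz12 was set beside that of the compared regions, counting for each region only Suz12 peaks outside it. RYBP-only regions had a median gap of 67.8 kb (64.3 to 71.3 kb) and 4.54% (3.96 to 5.21%) within 5 kb, and their intervals overlap those of the members. Ring1B-only regions had a median of 87.1 kb (71.3 to 97.7 kb), yet 14.3% (12.1 to 16.9%) lay within 5 kb of Suz12 and 10.2% (8.27 to 12.5%) within 1 kb. Regions with Ring1B, RYBP and Suz12 had a further Suz12 peak within 5 kb in 14.1% (12.1 to 16.3%) and a median gap of 55.9 kb (47.5 to 65.2 kb). The members therefore had close Suz12 neighbours at about the rate of RYBP-only regions, and at a lower rate than Ring1B-only regions. Since Suz12 peaks are part of the rule, this is a description.

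**Figure D4:**
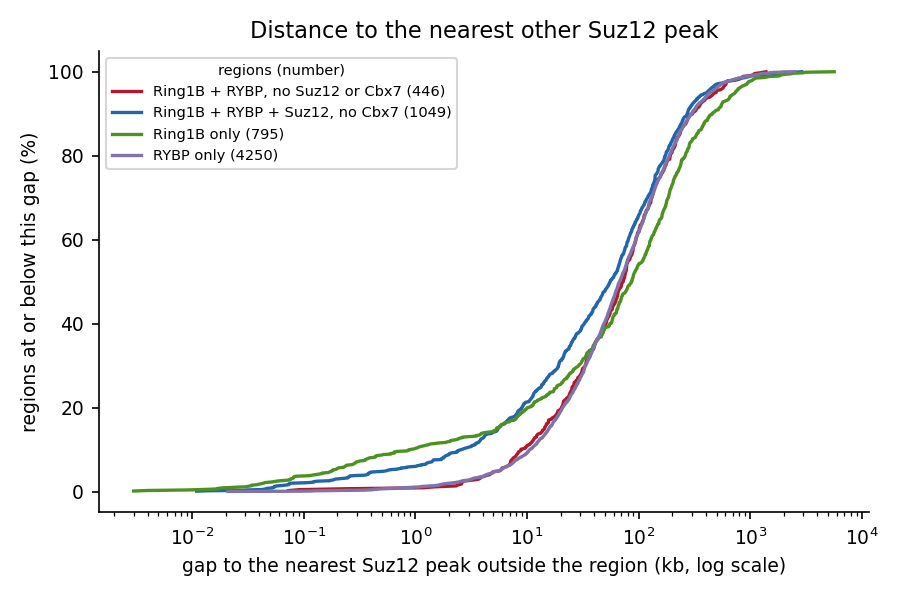
Cumulative share of regions (y axis, percent) by the gap to the nearest Suz12 peak outside the region (x axis, kb, log scale), one line per kind of region. The line of the 446 members follows that of RYBP-only regions, and at 5 kb stands at 4.71% where Ring1B-only regions have reached 14.3%.

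Other Ring1B and RYBP peaks also lay more than 10 kb from most members. The nearest Ring1B peak outside a member was a median of 78.2 kb away (66.0 to 89.3 kb), and 1.12% of members had one within 1 kb (0.480 to 2.60%). The same share was 0.918% of RYBP-only regions (0.672 to 1.25%), 10.8% of Ring1B-only regions (8.84 to 13.2%) and 5.24% of regions with Suz12. The nearest other RYBP peak was 63.5 kb away (51.8 to 77.9 kb), compared with 40.7 kb (38.6 to 43.4 kb) for RYBP-only regions, 46.8 kb (40.9 to 51.7 kb) for regions with Suz12 and 101 kb (88.6 to 118 kb) for Ring1B-only regions. The nearest other merged region of any kind was a RYBP-only region for 174 members (39.0%, 34.6 to 43.6%), and such regions make up 31.7% of all. It was a region with Suz12 for 222 members (49.8%, 45.2 to 54.4%), and 57.4% of all regions carry Suz12. For 12 members (2.69%) it was another member.

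The member closest to Suz12 lay on chromosome 18 from 39650552 to 39651947, 73 bp from a Suz12 peak, with a Ring1B peak of 1395 bp that enclosed a RYBP peak of 1366 bp. Members on chromosome 11 from 105450071 and on chromosome 16 from 35769918 followed at 91 and 249 bp. A member on chromosome 2 from 84676965 lay 1173 bp from Suz12 and 1415 bp from Cbx7, the shortest gap to Cbx7 of all members, and 1 on chromosome 7 from 86697607 lay 1487 bp from Suz12. Just outside the rule, the smallest stretch of Suz12 shared with Ring1B or RYBP was 220 bp, on chromosome 8 from 13337466 to 13339642, followed by 303 bp on chromosome 1 from 23928383 and 347 bp on chromosome 15 from 39651771. Only 4 of the 1049 regions with Suz12 shared 500 bp or less, so contacts of Suz12 were seldom marginal either.

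The 5 most isolated members lay between 1017 and 1388 kb from Suz12. The farthest, on chromosome 10 from 55962818 to 55963938, paired a Ring1B peak of 805 bp with a RYBP peak of 1120 bp that enclosed it, and a Cbx7 peak was nearer to it, at 130 kb. The others were on chromosome 1 from 71083271 (1246 kb), chromosome 17 from 10087989 (1091 kb), chromosome 16 from 62786262 (1069 kb) and chromosome 6 from 95667821 (1017 kb). Their peaks were all staggered, with Ring1B widths from 749 to 1056 bp. Isolation showed little relation to peak width over the members: Spearman's rho between the Suz12 gap and Ring1B width was -0.04, and between the gap and RYBP width 0.00020 (n = 446 regions, as a description). The 48 members within 10 kb of Suz12 had a median Ring1B width of 1012 bp (796 to 1248 bp), the 227 between 10 and 100 kb 976 bp (925 to 1043 bp) and the 171 farther away 971 bp (908 to 1074 bp). Ring1B lay inside RYBP in 56.3%, 63.9% and 58.5% of these groups.

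The members were spread over 19 autosomes and X. Chromosome 7 held the most, 43 (9.64%, 7.24 to 12.7%), followed by chromosome 11 with 39 and chromosome 2 with 36, while chromosome 16 held 8 and X held 1. Per 100 Ring1B peaks of the same chromosome there were 9.73 members on chromosome 7, 4.49 on chromosome 16 and 0.444 on X. The single X member lay from 98989208 to 98990447, with a Ring1B peak of 1002 bp inside a RYBP peak of 1239 bp, 53.2 kb from Suz12. Of the autosomal regions with Ring1B and RYBP, the share without Suz12 ran from 13.0% on chromosome 19 (7.21 to 22.3%) to 26.4% on chromosome 7 (20.2 to 33.6%), and these intervals overlap. On X it was 1 of 6.

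The rule used peak positions but set no condition on the chromosome. The members' share of each chromosome was tested against each compared kind of region by two-sided Fisher's exact tests. The p-values were adjusted over chromosomes by the Benjamini-Hochberg method. The same members enter all 3 comparisons. Regions are not replicates and neighbouring regions are not independent, so the p-values describe only the regions of these libraries. Against regions with Ring1B, RYBP and Suz12, 0 of 20 chromosomes (0%) passed an adjusted p of 0.05 in Fisher's exact test, and 0 had an unadjusted p below 0.05. Chromosome 7 held 9.64% of the members and 7.63% of those regions. Against RYBP-only regions, again 0 of 20 chromosomes (0%) passed, with 4 below 0.05 unadjusted in Fisher's exact test and a lowest adjusted p of 0.18. Those 4 were chromosomes 1, 3 and 7, on which members were the more frequent, and chromosome 6, with 6.28% of members and 9.41% of RYBP-only regions. Against Ring1B-only regions, 2 of 21 chromosomes (9.52%) passed. Only the RYBP list separates members from those regions, so this comparison cannot be told apart from where RYBP peaks were listed.

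On X lay 1 of 446 members (0.224%, 0.0396 to 1.26%) and 41 of 795 Ring1B-only regions (5.16%, 3.82 to 6.92%), an odds ratio of 0.041 (exact interval at 95% from 0.0010 to 0.246). Fisher's exact test gave 4.3e-06 after adjustment (1.6e-06 to 0.714 over the alternatives), and the call was lost, at 0.714, when only Ring1B and RYBP peaks of at least median width were kept, which left 27 members. RYBP-only regions had 17 of 4250 on X (0.400%), and regions with Ring1B, RYBP and Suz12 had 4 of 1049 (0.381%). The whole RYBP list had 24 peaks there and the Ring1B list 225, and the part of this low RYBP number in the difference was not tested. On chromosome 7 the odds ratio was 1.91 (1.20 to 3.05 by the exact method; Fisher's exact test gave an adjusted p of 0.0497), with 9.64% of members and 5.28% of Ring1B-only regions. The chromosome 7 call was lost when each 1-Mb window was counted once (adjusted p = 0.265), when X and Y were left out (0.192), when peaks up to 1 kb apart were merged (0.0961) and when Suz12 or Cbx7 within 5 kb was excluded (0.265), with adjusted p from Fisher's exact tests between 0.0343 and 0.265 over the alternatives that gave a finite odds ratio.

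**Figure D5:**
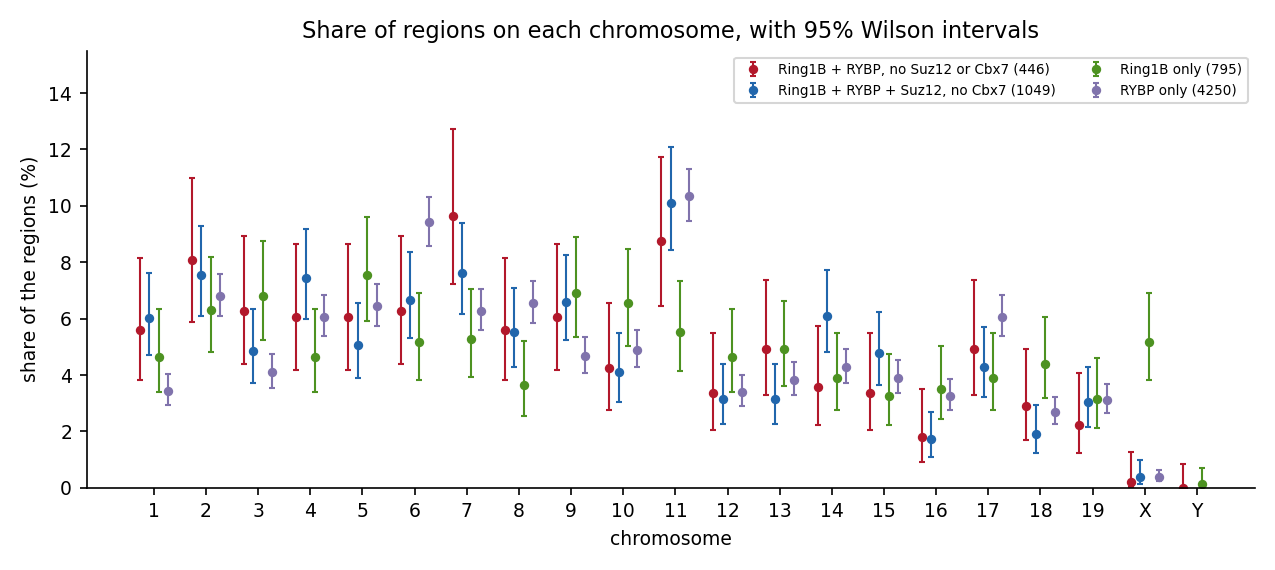
Share of regions on each chromosome (y axis, percent, points with 95% Wilson intervals) for the 446 members and the 3 compared kinds of region. Members and Ring1B-only regions stand apart on X (0.224% and 5.16%). RYBP-only regions (0.400%) and regions with Ring1B, RYBP and Suz12 (0.381%) are also scarce there.

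The members occupied 382 windows of 1 Mb, of which 323 held a single member, 54 held 2 and 5 held 3. The 1049 regions with Ring1B, RYBP and Suz12 occupied 645 such windows, the 795 Ring1B-only regions 621 and the 4250 RYBP-only regions 1268. Whether the members cluster was not tested. The median distance from a member to the nearest other one was 1164 kb. Among the windows with 3 members, chromosome 11 from 69000000 held 17 Ring1B, 24 RYBP, 15 Suz12 and 1 Cbx7 peaks, and chromosome 2 from 172000000 held 11, 17, 12 and 2. In the chromosome 11 window the members lay 40.1, 11.6 and 33.0 kb from Suz12, and in the chromosome 2 window 35.4, 37.9 and 50.3 kb. The others, chromosome 5 from 107000000, chromosome 9 from 53000000 and chromosome 13 from 58000000, held between 6 and 10 Ring1B peaks each. All 3 members of the chromosome 5 window and all 3 of the chromosome 9 window had Ring1B inside RYBP.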

How the data were processed

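ChIP-seq peak lists of Ring1B, RYBP, Suz12 and Cbx7 were used, 1 list per protein, each assigned to the only sample with that target. As deposited by the authors, a list gives the chromosome, the first and the last position of each peak, and no score, p-value or read count. The submitters' processing notes name build mm9, MACS 1.3.7.1 and Bowtie 0.12.7 without saying what each was used for. The control, the threshold and the treatment of duplicate reads are unknown here. The list name carries 5 for RYBP and 10 for the others, with no stated meaning. If it is a threshold, the number of members and the widths and nesting of their peaks may depend on it. No other threshold was tested.

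Width was taken as end minus start, and merging as described in the text. For geometry, the Ring1B and RYBP peak of a region that shared most bases were compared. Gaps ran from region edge to peak edge. Intervals cover counting error only. The chromosome tests and the interval functions were run in Python 3.11.15 with numpy 2.4.6, pandas 2.3.3 and SciPy 1.17.1, figures with matplotlib 3.10.9, and checked on simulated lists. Regions were named as the 5 widest, the 5 with most and the 5 with fewest shared bases, the 5 nearest to and 5 farthest from Suz12, and the windows of 1 Mb with most members; the rule named 3 windows, and all 5 tied ones are given. The 3 regions just outside the rule, the X member and the closest pair were chosen after their values were seen, as were the width quintiles and the shared width band. The members and lists were chosen with earlier results of these data known. A genome and annotation of mm9 were not used here, so regions were not assigned to genes.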

Additional observations from a re-analysis of the deposited data

How the results depend on the processing

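For the counts, medians and shares, 74 alternative values stayed within the interval of the reported value or within 1.5 times a count, and 13 did not. For the odds ratios of chromosomes 7 and X, 9 stayed called and 5 lost the call in the same direction. Merging peaks up to 1 kb apart gave 446 members, 435 of them the same regions, and excluding Suz12 or Cbx7 within 5 kb left 425. Requiring 50% of the shorter peak, exactly 1 peak of each protein, or no Cbx7 list kept the same 446. With these settings the widths, geometry and gaps of the members could not move, although they are counted among the 74. Keeping only Ring1B and RYBP peaks of at least the median width of their lists left 27 members, since the members' Ring1B peaks are narrow. By that construction the medians became 2205 bp for the region, 1827 bp for Ring1B and 1913 bp for RYBP. Ring1B then lay inside RYBP in 22.2%, RYBP was covered to 87.9%, midpoints lay 150 bp apart and Suz12 47.1 kb away. The chromosomes called against Ring1B-only regions fell from 2 to 1 with merging within 1 kb, with the 5 kb exclusion and with windows of 1 Mb counted once, and to 0 without X and Y and with wide peaks, where chromosome 7 gave no finite odds ratio. The cause was not tested. No paired analysis was possible because each protein had 1 library.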

Other observations

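The closest pair of members lay 2.18 kb apart on chromosome 11, from 119125308 to 119126431 and from 119128612 to 119130210. It was the only pair within 10 kb, and 17 neighbouring pairs lay within 100 kb of each other. Over the 18 chromosomes with at least 10 members, the median Ring1B width ran from 805 bp on chromosome 10 to 1178 bp on chromosome 15. The median RYBP width on the same chromosomes ran from 1108 bp on chromosome 18 to 1404 bp on chromosome 11, and the median gap to Suz12 from 41.2 kb on chromosome 14 to 136 kb on chromosome 18. Ring1B lay inside RYBP in 40% of the 15 members of chromosome 15 and in 77.3% of the 22 members of chromosome 13. These differences between chromosomes were not tested.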
